A study of Mus musculus with 45 samples.

Results

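Intermediate progenitor cells (IPCs) of the dentate gyrus (DG) were compared between mice that had received a lateral fluid percussion injury (LFPI), a pressure pulse delivered to the brain surface as a model of traumatic brain injury, and mice that had received the sham procedure. The libraries are those that the labels give as IPC libraries of the injury experiment, and they are 6 of the 45 in the series: LFPI mice 1, 2 and 3 and sham mice 4, 5 and 6. All 6 mice were Nestin-GFP animals on the C57Bl6J strain, 6 to 9 weeks old, in which regulatory elements of Nestin drive GFP, and the DG on the side of the procedure was taken 4 h afterwards. IPCs were sorted as live cells with GFP and without surface GLAST, and negative for CD31, CD45, Cd11b, O1 and O4, markers of endothelium, blood cells, microglia and the oligodendrocyte lineage. Each library came from the lysate of 300 sorted cells of 1 mouse, of which only a part was amplified, with the SMART-Seq HT kit. The same mice gave neural stem cell (NSC) libraries, sorted as GFP and GLAST positive, from LFPI mice 1, 2 and 3 and sham mice 4 and 6. Whole DG libraries came from 3 other LFPI mice and 3 other sham mice. In the Nestin-GFP line endothelial and oligodendroglial cells can also carry GFP, so the gate for IPCs rests on the antibodies that remove them.

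In the adult DG, radial glia-like NSCs give rise to IPCs, which divide, turn on neurogenic transcription factors such as Eomes and Neurod1 and go on to become granule neurons. Brain injury is known to open the blood-brain barrier, disturb the osmotic balance of the tissue and activate glia and inflammatory signalling within hours. Cells under osmotic stress take up compatible organic solutes such as myo-inositol through dedicated transporters. Whether IPCs change their transcripts this early after LFPI is the question of the comparison.

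The libraries differed in more than the treatment. The 3 LFPI libraries held 16351321 to 21598519 reads in genes and the 3 sham libraries 9604877 to 12804286, without overlap, a ratio of 1.68 between the means (exact permutation test, two-sided, p = 0.1, the smallest that 3 against 3 allows). The LFPI libraries carried lane numbers 3 and 4 in the file headings and the sham libraries 5 and 6. Lane and depth therefore cannot be told apart from the treatment.

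Markers of the sorted cells were checked next. The IPC libraries held Neurod1 at 3019 to 4874 normalized counts (counts divided by the size factor of each library) and Sox11, a transcription factor of neuroblasts, at 11234 to 20515. Within the same mouse, Sox11 was higher in IPCs than in NSCs in 5 of 5 mice, by 1.42 to 1.91 times, and Neurod1 and Eomes in 4 of 5, with lowest ratios of 0.995 and 0.531. Dcx and Neurog2 were higher in IPCs in 3 of 5, with lowest ratios of 0.636 and 0.202, so not every lineage marker set the populations apart. Slc1a3, which encodes the GLAST used to exclude NSCs, was nonetheless abundant, at 28130.1 to 76411 normalized counts in IPCs against 36091 to 80201 in NSCs, with IPC to NSC ratios of 0.73 to 0.96 in the 5 mice. The ranges of the transcript in the sorted populations overlapped. Gfap, Aldoc and Hopx were higher in IPCs in 1 of 5 mice and Apoe in 2. IPC to NSC ratios were 0.631 to 1.067 for Gfap and 0.682 to 1.198 for Aldoc. For Hopx and Apoe they were 0.813 to 1.069 and 0.709 to 1.096. These stem cell transcripts did not set the populations clearly apart. In each IPC library 27 radial glia-like genes summed to 395718 normalized counts or more. The 23 genes of intermediate progenitors and neuroblasts summed to 93281 or less. Nes, whose regulatory elements drive the GFP, had 452, 202 and 0 normalized counts in the LFPI libraries and 424, 226 and 191 in the sham libraries. It was thus listed at 0 in 1 library of cells sorted for GFP. Ptprc, which encodes CD45, was at 0 in all 6 IPC libraries. Pecam1, which encodes CD31, had 1911, 1411 and 1319 normalized counts in the LFPI libraries and 447, 901 and 1104 in the sham libraries, all 3 LFPI values above the sham values. Endothelial transcripts were therefore not absent from these sorted cells, and the summed level of an endothelial list spanned 65031 to 120739 normalized counts in LFPI libraries and 53936 to 114487 in sham libraries.

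No gene passed the main test between LFPI and sham IPCs. A gene was tested where CLEAR, a filter that keeps transcripts with even coverage and so removes those too scarce to quantify, had kept it in all 6 libraries and it was above 0 in at least 1. Of 8510 such genes, 0 (0%) passed limma, which required an adjusted p under 0.05 and a change of 2-fold or more, and the smallest adjusted p was 0.743. At an unadjusted p under 0.05, limma had 420 genes (4.94%), 209 higher (2.46%) and 211 lower (2.48%). The quasi-likelihood test of edgeR on reads recovered from the deposited values also called 0 genes (smallest adjusted p 0.998), with 385 (4.52%) at an unadjusted p under 0.05. DESeq2 on the same reads called 18 genes (0.212%), 5 higher (0.0588% of those tested) and 13 lower (0.153%). The tools thus disagreed on whether any gene passed. The study chose its own gene list, the same 18 genes, on the same 6 libraries, so that list is no independent evidence of the directions. For Slc5a3 alone among them, the paper also reported more transcript in IPCs after LFPI in other, wild-type mice, by in situ hybridization (RNAscope). With averages per mouse the paper found similar trends for the genes it checked, of which not all reached significance. The calls of DESeq2 numbered 9 to 54 when 1 mouse was left out, 54 without LFPI mouse 1 and 9 without sham mouse 6. Only Ptgds and Apod were called in all 6 of these fits, and Zrsr1 and Lrrn3 in 5.

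**Figure D1:**
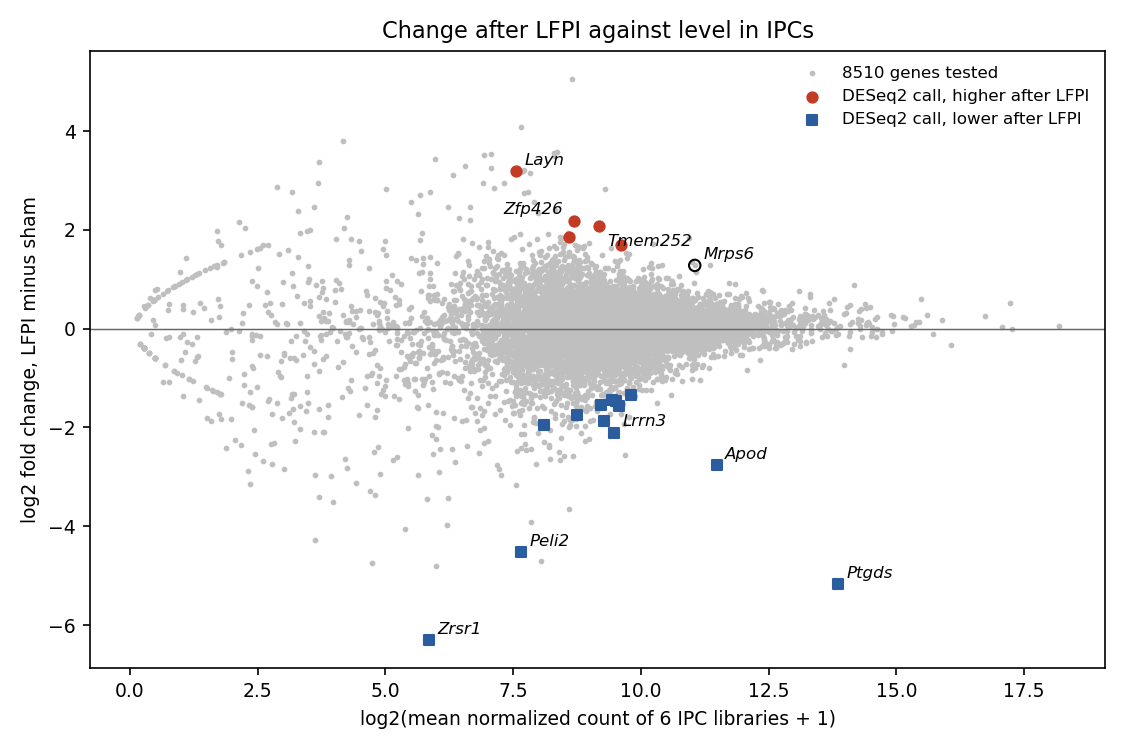
Each grey point is 1 of the 8510 genes tested, with log2 of the mean normalized count over the 6 IPC libraries plus 1 on the x axis and the log2 fold change of LFPI over sham on the y axis. Red circles and blue squares are the 5 genes called higher and the 13 called lower by DESeq2, the ring is Mrps6, and Zrsr1, Ptgds and Peli2 lie below the other genes called.

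In the plot of fold change against level, the genes called by DESeq2 spread over the range of levels, and the largest differences from 0 belong to genes that were scarce or very uneven. The log2 fold changes of all genes were centred near 0, with a median of 0.03 and 4457 genes (52.4%) above 0. In 878 of the 8510 genes (10.3%) the 3 LFPI values did not overlap the 3 sham values, 486 with LFPI higher (5.71%) and 392 with LFPI lower (4.61%). With 3 against 3 libraries and no difference, a gene separates in this way with a probability of about 0.1. The share of 10.3% is near that, so a lack of overlap in 1 gene is by itself no sign of a difference. These shares are the background for the counts of non-overlapping genes below. In the text below, values are given for mice 1, 2 and 3 (LFPI) and 4, 5 and 6 (sham) in that order, LFPI against sham, and log2 fold changes of LFPI over sham are from limma on log2(normalized count + 1) with the standard error. The limma adjusted p was 0.743 or higher for each gene.

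The myo-inositol transporter was among the higher genes. Slc5a3 encodes SMIT1, a sodium-coupled carrier that brings myo-inositol into cells and is induced by hypertonic stress in kidney and brain. Its 3 LFPI libraries had 785, 1692 and 1151 normalized counts and its sham libraries 269, 455 and 364. Every LFPI value lay above every sham value, and LFPI mouse 2 was the highest. The log2 fold change was 1.70 ± 0.41, and DESeq2 called it (adjusted p = 0.0368) in the fit of all 6 libraries and in 2 of the 6 fits that left out a mouse. The 9 untreated IPC libraries of the series, which were normalized separately, ranged from 31.8 to 544 normalized counts. They also differed from the 6 libraries here in abundant genes, such as Apoe at 28706 to 84580 against 165710 to 478574. Slc1a3 was at 5534 to 10817 in the untreated libraries against 28130 to 76411 here, and Gfap at 183 to 1988 against 9755 to 25957. Their ranges, here and below, are therefore no baseline for either group.

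Slc5a3 lies on chromosome 16 of GRCm38 (chr16:92058322-92087473, plus strand), and in RefSeq its start is 14 bases from that of Mrps6 (chr16:92058270-92112227, plus strand), which encodes a protein of the mitochondrial ribosome. The genes share 159 exonic bases, 1.46% of those of Slc5a3 and 10.4% of those of Mrps6. Mrps6 had 1976, 3645 and 3467 normalized counts after LFPI and 928, 1382 and 1354 after sham. It was higher in each LFPI library than in any sham library, with a log2 fold change of 1.28 ± 0.31, but DESeq2 did not call it (adjusted p = 0.0754). The neighbours thus had the same direction in these libraries.

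The stretch upstream of this shared start is shown because both genes begin there. It is given with that of Layn, the gene with the largest fold change among those DESeq2 called higher, from the RefSeq annotation of GRCm38.p6, 5′ to 3′ on the strand of the gene. Capitals mark GGGCGG, the GC box, and TGGAAA, the core of the tonicity element bound by NFAT5, on either strand (CCGCCC and TTTCCA on the other), with overlapping matches merged.
Slc5a3 (chr16:92058072-92058269, plus strand): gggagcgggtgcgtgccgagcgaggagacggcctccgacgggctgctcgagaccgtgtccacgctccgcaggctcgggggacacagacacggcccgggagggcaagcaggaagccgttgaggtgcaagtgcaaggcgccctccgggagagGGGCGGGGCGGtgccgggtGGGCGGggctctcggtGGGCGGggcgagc
Layn (chr9:51077095-51077344, minus strand): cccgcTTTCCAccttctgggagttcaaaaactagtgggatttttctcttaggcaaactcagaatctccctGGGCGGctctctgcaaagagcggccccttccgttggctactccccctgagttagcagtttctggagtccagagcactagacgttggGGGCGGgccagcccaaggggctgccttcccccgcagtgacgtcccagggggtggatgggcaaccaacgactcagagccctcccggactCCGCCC
The Slc5a3 stretch of 198 bases, with the last 52 bases before the start left out because they are exon of Mrps6, held 4 GC boxes and no TGGAAA, and 75.8% of its bases were G or C. The Layn stretch of 250 bases held 3 GC boxes and 1 TGGAAA. Of 32851 promoter stretches of 250 bases, 32.7% held a GC box and 18.6% a TGGAAA, so such matches are common and describe the letters only.

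Layn encodes layilin, a membrane receptor for hyaluronan, the matrix polymer of the brain. It had 558, 361 and 102 normalized counts in LFPI libraries and 49.9, 39.1 and 12.6 in sham libraries. The groups did not overlap, and LFPI mouse 3 was well below the other LFPI mice. The log2 fold change was 3.18 ± 0.86, the DESeq2 adjusted p was 0.034, and untreated IPC libraries ranged from 25.2 to 421, a range that holds 4 of these 6 values.

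The other 3 genes called higher by DESeq2 were less well characterised. Tmem252, a transmembrane protein gene, had 474, 1856 and 588 normalized counts after LFPI and 140.1, 204 and 233 after sham (log2 fold change 2.09 ± 0.57). Zfp426, a zinc finger protein gene, had 666, 420.1 and 930.3 against 225, 148 and 80.9 (2.19 ± 0.56). In both genes the lowest LFPI value was above the highest sham value, and in Tmem252 LFPI mouse 2 stood well above the others (log2 fold change 1.48 without it). The noncoding transcript 2810468N07Rik had 689, 657 and 459 against 134, 188 and 173 (1.85 ± 0.46). It lies antisense to Sox8 and shares 329 exonic bases with it (15.5% of its own), and because counting ignored strand its reads and those of Sox8, which averaged 696 normalized counts after LFPI and 338 after sham, cannot be told apart there. None of these 3 was called in more than 2 of the fits that left out a mouse.

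Of the genes that no tool called, those with the smallest limma p, no overlap and higher LFPI values included several enzymes of known pathways. Gfpt2, an enzyme that makes hexosamines for glycan synthesis, had 1885, 1779 and 2064 normalized counts after LFPI and 1076, 836 and 531 after sham (1.28 ± 0.32). Pde4b, which degrades cyclic AMP, had 1785, 3713 and 3431 against 1495, 1012 and 914 (1.35 ± 0.34). Tyms, the thymidylate synthase of DNA replication, had 1283, 1141 and 1212 against 298, 712 and 429 (1.43 ± 0.39). The LFPI libraries of Tyms and Gfpt2 were close to each other, and the sham libraries were spread wider. Fbxl5, a sensor of iron that targets iron regulatory proteins for degradation, had 1844, 1477 and 1663 against 471, 841 and 879.9 (1.23 ± 0.33). Lbr, the lamin B receptor of the inner nuclear membrane, had 1702, 1073 and 1635 against 627, 535 and 717 (1.21 ± 0.32). Their DESeq2 adjusted p ranged from 0.0754 for Pde4b to 0.243 for Tyms, all above the threshold.

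**Figure D2:**
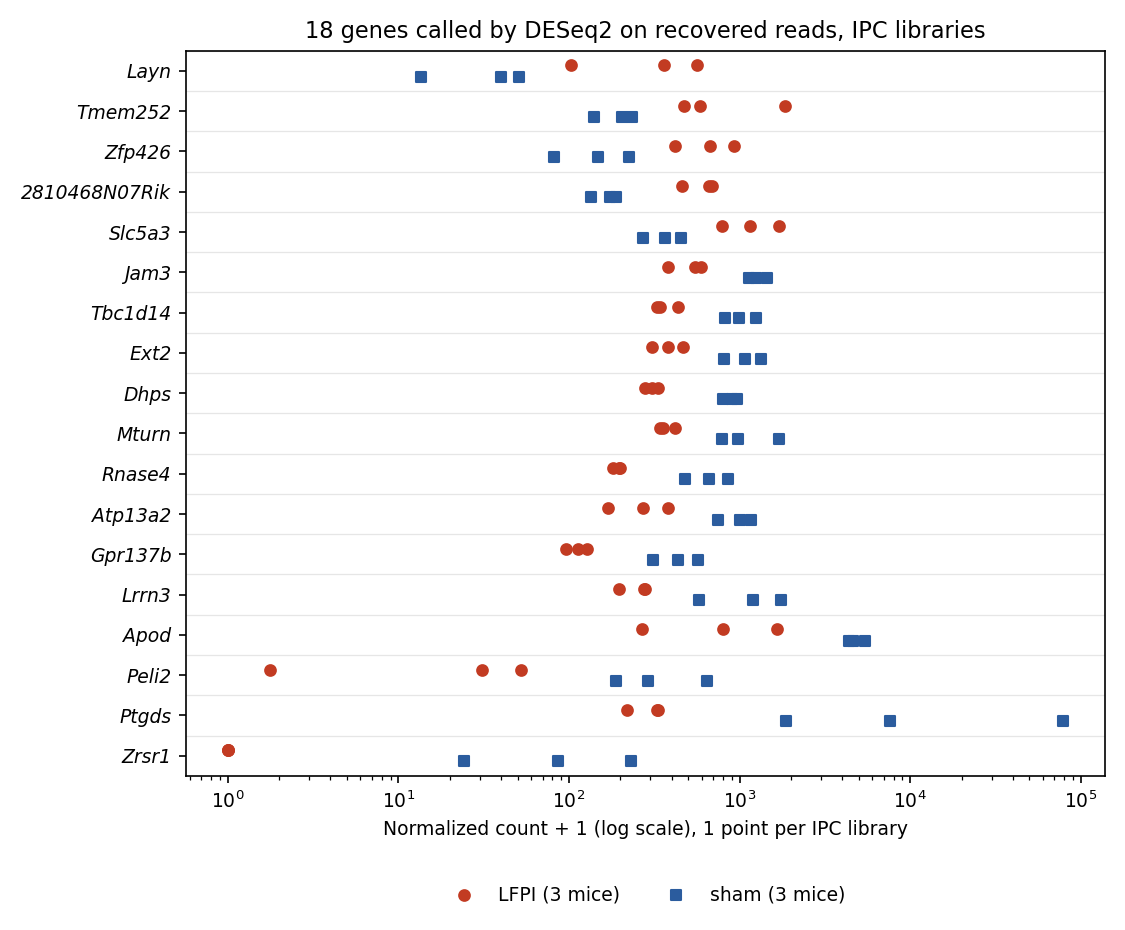
Normalized counts plus 1 (log axis) of the 18 genes called by DESeq2, 1 row per gene, with a red circle for each of the 3 LFPI and a blue square for each of the 3 sham IPC libraries. The circles and squares do not overlap in any row, and the squares of Ptgds span 1858 to 78609 normalized counts.

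Lower after LFPI by DESeq2 were 13 genes, among them Ptgds and Apod, which encode secreted lipid carriers. Ptgds encodes lipocalin-type prostaglandin D synthase, which is made in large amounts by leptomeningeal cells, choroid plexus and oligodendrocytes. It had 333, 219 and 327 normalized counts in the LFPI libraries and 78609, 1858 and 7639 in the sham libraries. The LFPI values were alike and low, and the sham values ran over a wide range with mouse 4 far above the rest. The log2 fold change was -5.17 ± 1.03, the DESeq2 adjusted p was 0.00155, and without sham mouse 4 the DESeq2 call remained and the log2 fold change was -3.71. The untreated IPC libraries, again normalized separately and no baseline, ranged from 0 to 1529. The LFPI values lay inside that range and all 3 sham values above it.

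Apod encodes apolipoprotein D, a lipid carrier of fibroblasts and of the oligodendrocyte lineage. It had 1666, 794 and 268 normalized counts after LFPI and 4617, 5445 and 4369 after sham. The 3 sham libraries were close to each other, and the LFPI libraries were lower and more uneven. The log2 fold change was -2.76 ± 0.54 (-2.06 without LFPI mouse 3) and the DESeq2 adjusted p 0.0022. The untreated libraries, which are no baseline here either, ranged from 410.0 to 1661. Every sham value lay above that range, LFPI mouse 1 just above it, LFPI mouse 2 inside it and LFPI mouse 3 below it.

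Zrsr1, which encodes a relative of the U2AF small subunit that recognises 3′ splice sites, was at 0 in all 3 LFPI libraries and at 85.3, 231 and 23.4 normalized counts in the sham libraries. Against a floor of 3 counts per LFPI library, averaged at 2.02 normalized counts, the sham mean of 113 makes it at least 56.1-fold lower after LFPI. Without sham mouse 5 the sham mean was 54.3, the limit was 26.9-fold and DESeq2 did not call it. With all 6 libraries the DESeq2 adjusted p was 0.000163. Zrsr1 (chr11:22972005-22976496, plus strand) is a single-exon gene that lies inside Commd1 on the other strand, and 412 of its exonic bases (9.17%) are also exon of Commd1, so its counts are uncertain where strand was ignored. Commd1 averaged 1294 normalized counts after LFPI and 1229 after sham. Untreated IPC libraries, normalized separately and no baseline, held Zrsr1 at 0 to 245, so a value of 0 also occurred without a procedure.

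The upstream stretches of Apod, which had tighter sham values than Ptgds, and of Zrsr1, the gene at 0 in every LFPI library, are shown for comparison with those above, on the strand of the gene and with the same capitals.
Apod (chr16:31314809-31315058, minus strand): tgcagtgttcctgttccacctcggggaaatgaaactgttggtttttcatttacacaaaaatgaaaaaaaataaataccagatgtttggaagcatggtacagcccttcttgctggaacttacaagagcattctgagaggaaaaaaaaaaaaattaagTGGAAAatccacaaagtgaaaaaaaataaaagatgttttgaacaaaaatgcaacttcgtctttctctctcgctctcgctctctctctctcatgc
Zrsr1 (chr11:22971755-22972004, plus strand): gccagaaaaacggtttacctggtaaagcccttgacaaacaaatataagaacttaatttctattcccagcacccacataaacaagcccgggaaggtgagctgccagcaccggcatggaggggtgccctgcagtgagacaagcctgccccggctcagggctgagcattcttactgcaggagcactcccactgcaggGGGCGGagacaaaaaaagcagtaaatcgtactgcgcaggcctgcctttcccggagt
The Apod stretch was poor in G and C (36.4%) and held no GC box and 1 TGGAAA, where that of Zrsr1 (54.4%) held 1 GC box and no TGGAAA. Neither stretch was as rich in G and C as that of Slc5a3.

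Most of the remaining genes called lower had smaller differences. Apart from Lrrn3, none of them was called in more than 3 of the 6 fits that left out a mouse. Lrrn3, a neuronal leucine-rich repeat membrane protein gene, had 279, 274 and 197 normalized counts after LFPI and 579, 1195 and 1746 after sham (-2.11 ± 0.48). Peli2, an E3 ubiquitin ligase gene of Toll-like and interleukin-1 receptor signalling, had 51.3, 0.775 and 29.8 against 644, 288 and 187 (-4.53 ± 1.21), and without LFPI mouse 2, which had the equivalent of 1 read, the log2 fold change was -3.03. Atp13a2, a lysosomal polyamine transporter gene, had 169, 271 and 382 against 1167, 743 and 1009 (-1.88 ± 0.44). In each of these genes every sham value was above every LFPI value. Gpr137b, which encodes a lysosomal membrane protein, had 113, 94.6 and 126 against 437, 571 and 311 (-1.94 ± 0.52). Rnase4, a secreted ribonuclease gene, had 181, 197 and 194 against 479.9, 852 and 659.7 (-1.75 ± 0.44), and 13.4% of its exonic bases are shared with Ang on the same strand. Dhps, the enzyme that begins hypusine synthesis on the translation factor eIF5A, had 277, 305 and 330.0 against 959, 793 and 901 (-1.54 ± 0.36). The LFPI libraries of Rnase4 and Dhps were closely grouped, well below the sham libraries.

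Ext2, a subunit of the heparan sulfate polymerase, had 377, 307 and 463 against 1069.5, 807 and 1328 (-1.47 ± 0.37). Mturn, a gene of neural progenitor differentiation described in frog embryos, had 416, 356 and 339 against 978, 784 and 1699 (-1.56 ± 0.39). Jam3, a junctional adhesion molecule gene, had 380.2, 550.3 and 589.5 against 1132, 1243 and 1443 (-1.34 ± 0.33), and 36.2% of its exonic bases are shared with another annotated gene, Gm48796. The sham means of these 3 genes were 2.79, 3.12 and 2.51 times the LFPI means. Tbc1d14, a regulator of autophagosome formation, had 341, 327 and 437 against 1245, 815 and 988 (-1.45 ± 0.36). Of the 13 lower genes, Jam3 and Gpr137b were called in 0 of the 6 fits that left out a mouse, and Ext2 and Tbc1d14 in 1.

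Several other markers of fibroblasts and myelin were low or at 0 in LFPI libraries without a CLEAR value in all 6, and they are given as values because they were chosen after their values were seen. Dcn, which encodes the fibroblast proteoglycan decorin, had 96.3, 0 and 0 normalized counts after LFPI and 1584, 467 and 1456 after sham. Col1a1, the collagen chain of fibroblasts, had 71.5, 0.775 and 0 against 104, 161 and 265. Mobp, a myelin protein gene, had 0.563, 0 and 0 against 57.3, 312 and 237. All 3 were higher in each sham library than in any LFPI library. Other members of the fibroblast list had higher means after LFPI, namely Pdgfra (536 against 332), Mgp (564 against 372) and Lum (71.7 against 31.5), all with overlap. Of the tested genes, 7 of 11 fibroblast and leptomeningeal and 3 of 8 oligodendroglial genes had a log2 fold change below 0. In all, 795 of 8684 genes outside the CLEAR set with a mean of at least 10 did not overlap (9.15%). That is again near the share that 3 against 3 libraries give without a difference.

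Over 25 fibroblast and leptomeningeal genes the summed level was 9448 to 10891 normalized counts in LFPI libraries and 15495 to 97388 in sham libraries, without overlap (ratio of LFPI to sham means 0.217, and 0.493 without sham mouse 4). Without Ptgds and Apod the sums were 8538 to 8892 and 8192 to 14163, which overlap. Of the 11 genes of the list that were tested, 2 were called lower by DESeq2, the same Ptgds and Apod, and 0 higher, with a median log2 fold change of -0.77. Igfbp2, the most abundant of the others, had 3074, 3548 and 3744 against 4104, 2041 and 1565 (0.55 ± 0.34), opposite in sign to them. Ogn, a matrix proteoglycan gene with a log2 fold change of -3.98 ± 1.46, overlapped because LFPI mouse 1 lay within the sham values. Fewer cells of a type and less RNA per cell cannot be told apart in such libraries, and the part of fibroblast or leptomeningeal RNA in the differences of Ptgds and Apod was not tested.

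**Figure D3:**
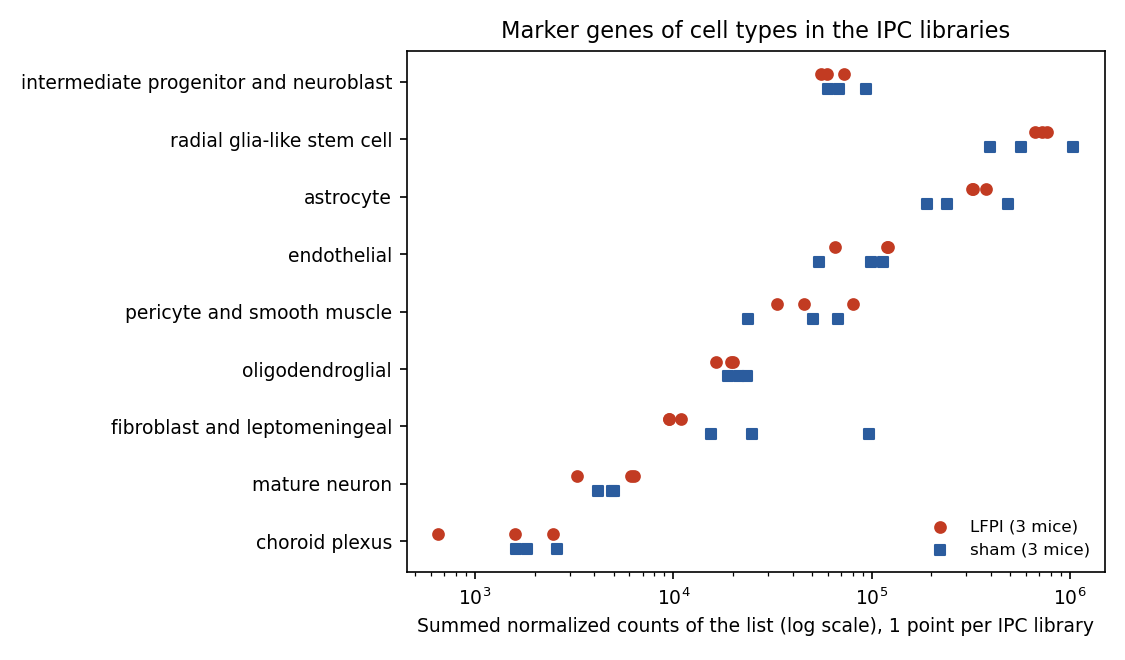
Summed normalized counts (log axis) of 9 marker lists, 1 row per list, with a red circle for each of the 3 LFPI and a blue square for each of the 3 sham IPC libraries. The fibroblast and leptomeningeal squares lie above the circles, with sham mouse 4 at 97388, and the other 8 lists plotted overlap as deposited (the oligodendroglial list does not once libraries are rescaled).

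The plot of marker sums shows the other cell types the gate could hold. The oligodendroglial sum was 16346 to 19899 in LFPI libraries and 18891 to 23428 in sham libraries, which overlap but no longer did when libraries were rescaled to one total. Of the microglia and blood cell markers, Ptprc, the CD45 gene, was at 0 in all 6 libraries, and Aif1 and Trem2 reached at most 1.22 and 4.87 normalized counts in any of them. P2ry12, a purine receptor of microglia, had 59.7, 115 and 236 against 289.9, 70.8 and 70.1. C1qb, a complement gene of microglia, had 218, 123 and 131 against 49.9, 35.4 and 0, higher in each LFPI library than in any sham library. Of 12 choroid plexus genes, Ttr and Prlr were at 0 in all 6 libraries, and 6 were above 0 in sham mouse 4, 6 in sham mouse 5 and 2 or 3 in each other library. Sham mouse 4, the library highest in Ptgds, had 67.0 normalized counts of Otx2, 64.6 of Folr1, 97.4 of Kcnj13, 40.2 of Aqp1 and 36.5 of Clic6, which were at 4.07 or less in every LFPI library. These members were chosen after their values were seen, and others did not follow them. Sostdc1 was at 0 in sham mouse 4 and at 197 in LFPI mouse 2, and Enpp2 at 1517 in sham mouse 4 and 2413 in LFPI mouse 1. The sum of the list was 1822 in sham mouse 4 and 653 to 2458 in the LFPI libraries. The part of choroid plexus genes in the Ptgds difference was not tested. The astrocyte sum was 320661 to 375790 and 189194 to 483904, and that of radial glia-like genes 667699 to 763153 and 395718 to 1034630. Sham mouse 4 was the highest library and sham mouse 6 the lowest in both of the last lists, so the sham mice varied more than the LFPI mice there.

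No list of injury-related genes held a gene called by limma, and DESeq2 called 1 member, Slc5a3, among them. The osmotic list had 7 tested genes with a median log2 fold change of 0.28, against 0.03 over all genes tested, and 2 of the 7 did not overlap, both higher. Beside Slc5a3 this was Akr1b3, an aldose reductase that makes sorbitol, at 864, 835 and 1035 against 794, 301 and 695 (0.72 ± 0.42). Nfat5, the transcription factor of the tonicity response, was not kept by CLEAR in every library and had 309, 386 and 278 against 240.0, 75.7 and 191. Of the 7 tested genes 6 had a log2 fold change above 0 and 1 below, Slc6a6, at 1146, 1246 and 941 against 1009, 1766 and 1316 (-0.27 ± 0.31). Slc6a12 and Slc6a8, also not kept by CLEAR in every library, overlapped. Slc6a12 had 0, 0 and 0 against 804, 0 and 43.1, and Slc6a8 had 0.563, 322 and 47.4 against 486, 0 and 0. The water channel gene Aqp4 had 5615, 7789.7 and 7621 against 11949, 4136 and 3779.5, with sham mouse 4 the highest of the 6. Members picked out for their lack of overlap, here and below, were chosen after their values were seen.

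Immediate early genes, which neurons and glia induce within minutes of stimulation, had 13 tested members with a median of 0.07 and 0 that did not overlap. Fos had 7859, 2277 and 1709 against 3015, 3471 and 2520.3, and the LFPI mice lay on both sides of the sham mice. Dusp1, a phosphatase that ends MAP kinase signals, had 4869.9, 2432 and 1303 against 2321, 3021 and 2309 (-0.02 ± 0.42). At this depth and with this spread no difference in either gene was detectable.

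Acute inflammation had 10 tested genes, all with a log2 fold change above 0 and a median of 0.63, and 3 of the 10 did not overlap, all higher, against 5.71% of all genes. Myd88, the adaptor of Toll-like and interleukin-1 receptors, had 451, 355 and 536 normalized counts after LFPI and 133, 134 and 156 after sham (1.64 ± 0.49). Icam1, an adhesion molecule for leukocytes, had 247, 454 and 333 against 195, 1.22 and 122 (3.15 ± 1.43), and without sham mouse 5, which had the equivalent of 1 read, the log2 fold change was 1.11. Cebpd, a transcription factor of the acute-phase response, had 942, 1779.6 and 1319.9 against 665, 926 and 931 (0.65 ± 0.34). In these 3 genes the gap between the groups was widest for Myd88, whose sham libraries were nearly alike. The most abundant members differed less, with Nfkbia, an inhibitor of NF-kB, at 3402, 4149.9 and 3698 against 4702, 3724 and 2477 and Stat3, a cytokine-activated transcription factor, at 3119.7, 4859 and 3245 against 3673, 2270.2 and 2675. Among cytokine and chemokine genes that CLEAR did not keep in all 6 libraries, Il1b, Tnf and Cxcl2 were at 0 in all 6 libraries. Cxcl1, a chemokine for neutrophils, had 55.8, 67.4 and 56.2 against 30.5, 0 and 0, and Ccl2, a chemokine for monocytes, had 0, 48.8 and 89.4 against 1.22, 0 and 0. Cxcl1 was higher in each LFPI library than in any sham library, and Ccl2 overlapped.

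Reactive glia genes had 9 tested members with a median of 0.40, and 2 did not overlap, both higher. Gfap, the intermediate filament of astrocytes and radial glia-like cells, had 23448, 25957 and 21057 normalized counts after LFPI and 20689.7, 10012 and 9755 after sham (0.89 ± 0.29), with LFPI mouse 3 just above sham mouse 4. Timp1, an inhibitor of metalloproteinases, had 125, 2014 and 182 against 48.7, 0 and 24.3 (5.06 ± 1.51), with LFPI mouse 2 far above the others. The log2 fold change was 3.34 without sham mouse 5, where it was at 0. Vim, the filament of radial glia, had 3019.9, 2170.3 and 2294 against 1814, 2616 and 3662 (-0.07 ± 0.30). The summed level of the list was 34044 to 45015 and 22787 to 29550.2, without overlap, and without Gfap it was 12987 to 19058 and 8861 to 14512, which overlap.

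Among stress programmes, hypoxia had 11 tested genes with a median of 0.23 and 3 that did not overlap, all higher. Ldha, the lactate dehydrogenase of glycolysis, had 8095, 8183 and 11823 against 7649, 5349.6 and 6525 (0.52 ± 0.24), and Slc2a3, a glucose transporter of neurons, had 184, 353 and 493 against 147, 85.4 and 70.1 (1.72 ± 0.62). Oxidative stress genes had 19 tested members, a median of 0.13 and 3 without overlap, all higher. They were Prdx1, a peroxiredoxin, at 17438, 20729 and 22999 against 16315, 14649 and 12718 (0.48 ± 0.21), Gsr, the glutathione reductase (1.63 ± 0.53), and Fth1, the ferritin heavy chain (0.43 ± 0.20). Heat shock genes split, with 14 tested, a median of 0.10, 2 higher without overlap and 1 lower. The lower member was Dnajb1, an inducible co-chaperone, at 506, 302 and 482 against 622, 715 and 1184 (-0.94 ± 0.41), and Hspa8, the constitutive HSC70 gene, had 42659, 35193 and 41566 against 31850.0, 34087 and 36255 (0.22 ± 0.20). The medians of genes of p53 and DNA damage (0.13, 10 tested, 2 higher without overlap), of the unfolded protein and integrated stress responses (0.20, 12 tested, 1 higher) and of the glucocorticoid response (0.09, 11 tested, 0) were all above 0. Mt1, the metallothionein gene that glucocorticoids and metals induce, had 14805, 29828 and 30888 against 20497, 21217 and 11103 (0.50 ± 0.34), with LFPI mouse 1 inside the sham range.

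**Figure D4:**
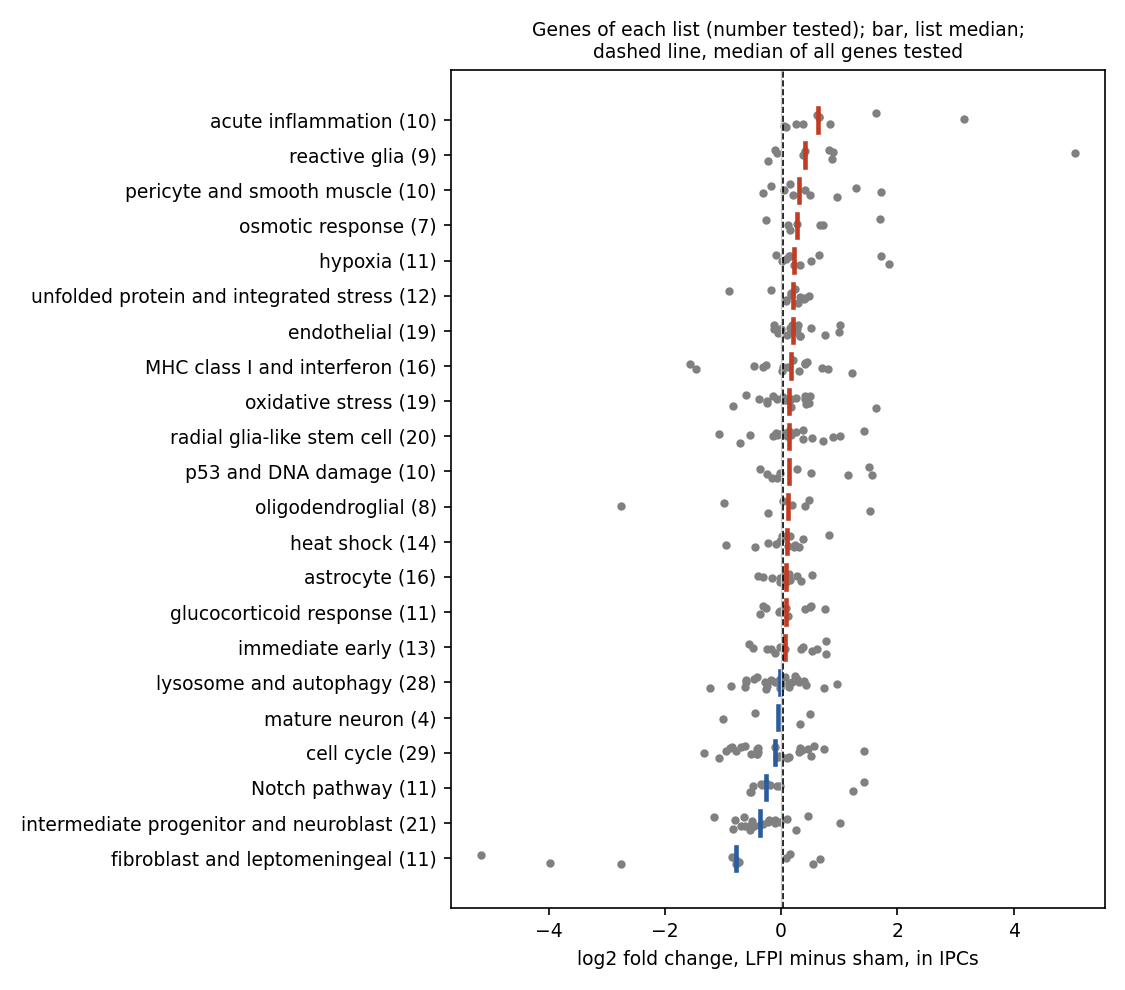
Each row is 1 gene list with its number of tested genes, and the x axis is the log2 fold change of LFPI over sham in IPCs. Grey points are genes, the coloured bar is the median of the list and the dashed line the median of all genes (0.03), and the list medians run from -0.77 for fibroblast and leptomeningeal genes to 0.63 for acute inflammation.

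Genes of the lineage itself were mostly lower, without a call. Of 21 tested genes of intermediate progenitors and neuroblasts 17 had a log2 fold change below 0, the median was -0.36, and 3 did not overlap, all lower. Neurod1, a proneural factor that drives granule neuron differentiation, had 3319, 3269 and 3019 normalized counts after LFPI and 4874, 4258 and 4867 after sham (-0.54 ± 0.21). Tubb3, the neuronal beta-tubulin, had 2581, 2899 and 3686 against 5394, 4083 and 7108 (-0.83 ± 0.26). Draxin, a secreted guidance protein of developing axons, had 292, 249.6 and 129 against 519, 560.2 and 355 (-1.15 ± 0.51). For Neurod1 the spread within each group was small beside the gap between them. Other members overlapped, among them Dcx, the doublecortin gene of migrating neuroblasts, at 959.9, 712 and 1716 against 2197, 1452 and 1925, and Eomes, the T-box factor of IPCs, at 713, 378 and 588 against 699, 686 and 933. Stmn1 and Sox11, the most abundant members, had log2 fold changes of -0.11 ± 0.23 and -0.11 ± 0.26. The summed level of the list was 55743 to 72046 in LFPI libraries and 60410 to 93281 in sham libraries, which overlap.

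Radial glia-like genes had 20 tested members, a median of 0.13 and 2 without overlap, Gfap and Hopx, a homeodomain gene of quiescent stem cells (0.37 ± 0.22). Apoe and Aldoc, the most abundant, had 263632, 298745 and 304791 against 478574, 265529 and 165710.0, and 154343, 167452 and 205830.0 against 190760.0, 109692 and 84914. Their LFPI values lay inside or close to the range of the sham mice. Cell cycle genes had 29 tested members and a median of -0.10, with 1 higher (Tyms) and 1 lower (Cdk6, a kinase of the G1 phase, -0.84 ± 0.40) without overlap. Top2a, which untangles replicated DNA, had 910.3, 41.1 and 1979 against 499, 1389 and 2498, with LFPI mouse 2 far below the other 5, and was not kept by CLEAR in every library.

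The other lists held little that set the groups apart. Lysosome and autophagy genes had 28 tested members, a median of -0.03 and 3 lower without overlap, among them Sqstm1, the autophagy receptor p62, at 6758, 6449 and 5729.7 against 8826, 7163 and 7099 (-0.28 ± 0.20). Genes of MHC class I and interferon had 16 tested members, a median of 0.16 and 1 lower, Tapbp, which helps load peptides on MHC class I, at 607, 318 and 299 against 1295, 1096 and 869. Notch pathway genes had 11 tested members, a median of -0.26 and 0 without overlap, and the target gene Hes5 had 2447, 998 and 966 against 2204, 2486 and 1303. Endothelial genes had 19 tested members, a median of 0.20 and 2 higher, Pecam1 and the surface antigen gene Ly6a, which has close paralogs that may share its reads. Genes of pericytes and smooth muscle (10 tested) and astrocytes (16 tested) had 0 without overlap and medians of 0.31 and 0.09. Few genes could be tested for the remaining types: 4 of mature neurons (median -0.05, 1 lower), 8 of the oligodendroglial lineage (median 0.11, 1 lower, Apod), 2 activity-linked genes (median 0.47, 0) and 1 of choroid plexus. The lower neuronal gene was Syp, which encodes the synaptic vesicle protein synaptophysin, at 527, 234 and 681 against 994, 813 and 831.

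The response of IPCs was then set against that of NSCs from the same mice and of whole DG. The NSC libraries carried lane numbers 3 and 4 after LFPI and 5 and 6 after sham, as the IPC libraries did. They held 15367572 to 17784627 reads in genes after LFPI and 11925924 to 13081689 after sham. A direction shared by IPCs and NSCs, here and below, is therefore no independent observation. By limma 0 of 9790 genes passed between LFPI and sham in NSCs, and 2 of 29053 (0.00688%) in whole DG, both higher. Whole DG libraries had a CLEAR value for each of 49922 genes, so CLEAR removed no gene there and the sets tested are unlike. With DESeq2 the paper reported more genes in NSCs and in whole DG, and that tool was not run here within either. The difference of the responses of IPCs and NSCs passed for 0 of 8080 genes in limma (smallest adjusted p 0.999), with 231 (2.86%) at an unadjusted p under 0.05, and DESeq2 called 1 (0.0124%). The gene with the smallest p there was Gm12279, at 14.1, 0 and 0.678 against 28.0, 29.3 and 13.5 in IPCs and 29.8, 24.7 and 13.1 against 0 and 0 in NSCs, with no more than 29.8 normalized counts in any of these libraries.

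Slc5a3 had the same direction in both sorted populations. NSC libraries had 1431, 1729.5 and 1475 normalized counts after LFPI and 339 and 341 after sham, a log2 fold change of 2.18 against 1.70 in IPCs, and the difference of the responses was -0.48 ± 0.52 (adjusted p = 0.999 from limma). In whole DG it had 619.6, 1308 and 991 against 594, 579 and 455 (0.79), and the difference was 0.91 ± 0.48 (adjusted p = 0.751). Mrps6 had 2824, 4129 and 4391 against 969.8 and 1131 in NSCs (1.83) and 349, 546 and 514 against 486, 321 and 417 in whole DG (0.20). LFPI and sham values of Slc5a3 did not overlap in any of the 3 sample types, and those of Mrps6 overlapped in whole DG. Gfpt2 was likewise higher in LFPI NSCs, at 1047, 1859 and 3152 against 529 and 759, and overlapped in whole DG (166, 242 and 289 against 182, 92.2 and 174).

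Ptgds and Apod had lower means after LFPI in NSCs as well, with groups that overlapped for Apod and not for Ptgds. NSC libraries had Ptgds at 16922, 4882 and 3502 after LFPI and 72786 and 29780.2 after sham, and in whole DG it had 2083, 2929.8 and 2691 against 4279, 2149 and 4629. Within a mouse, Ptgds in IPCs was 0.0197 to 1.08 times its level in NSCs, and it was lower in IPCs in 4 of 5 mice. Apod had 2485, 5859.9 and 670.4 against 14238 and 4023 in NSCs and 426, 831 and 679 against 859.8, 397 and 1048 in whole DG. The differences between the responses of IPCs and whole DG were -4.71 ± 1.33 for Ptgds (adjusted p = 0.516 from limma) and -2.56 ± 0.77 for Apod (adjusted p = 0.550), so neither passed.

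**Figure D5:**
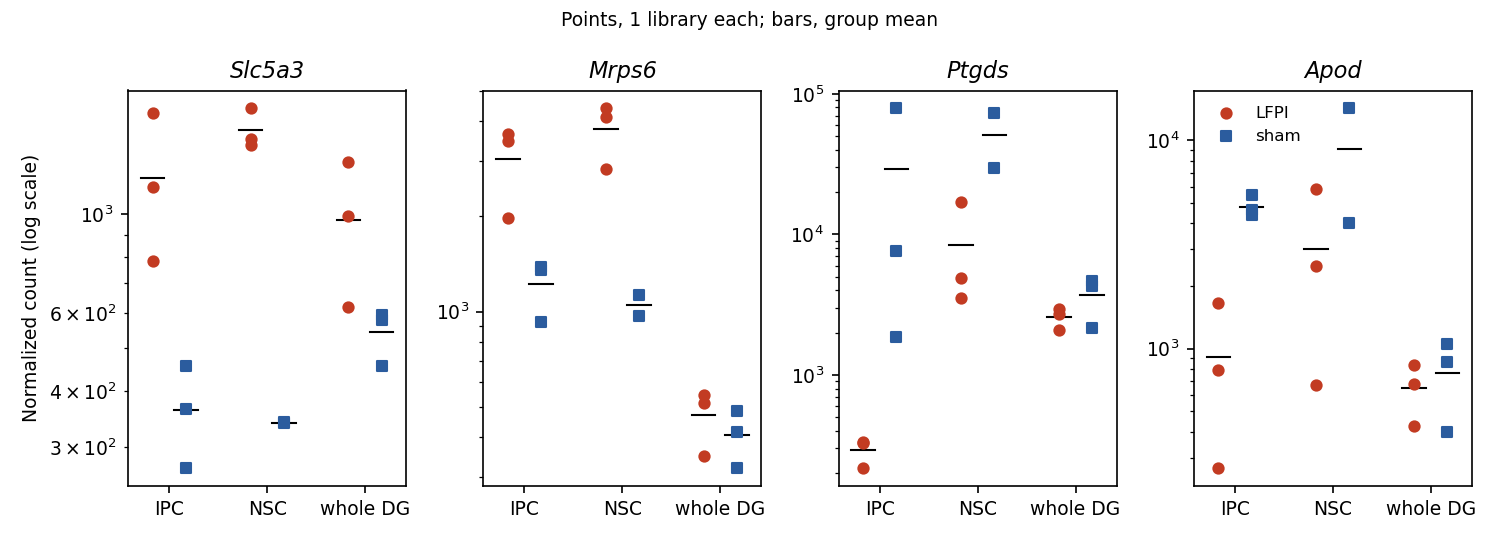
Slc5a3, Mrps6, Ptgds and Apod, 1 panel each, in IPCs, NSCs and whole DG, with normalized counts on a log axis, red circles for LFPI libraries, blue squares for sham libraries and black bars for group means. For Slc5a3 the circles lie above the squares in all 3 sample types, and for Ptgds the whole DG points lie within 2083 to 4629 normalized counts.

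The responses of IPCs and whole DG differed for 2 of 8659 genes (0.0231%) in limma, Myl6b and Zrsr1, both lower after LFPI in IPCs, and 590 (6.81%) had an unadjusted p under 0.05. Myl6b, a myosin light chain gene, had 0.563, 0.775 and 1.36 normalized counts in LFPI IPCs and 36.5, 61.0 and 53 in sham IPCs, and 96.7, 102 and 91.6 against 122, 162 and 112 in whole DG. In these LFPI IPC libraries 1 read was worth 0.563, 0.775 and 0.678 normalized counts, so the LFPI values were at the floor. Untreated IPC libraries, which are no baseline, held Myl6b at 0 to 103, with a median of 0. The difference of its log2 fold changes was -4.32 ± 0.58 (adjusted p = 0.0464). In NSCs of the same mice it had 101, 36.4 and 0 after LFPI and 2.2 and 19.6 after sham, which overlap. Zrsr1 was steady in whole DG, at 734, 783 and 695 after LFPI and 697, 779 and 756 after sham, against 0 in every LFPI IPC library, a difference of -6.28 ± 0.89 (adjusted p = 0.0464). NSCs had Zrsr1 at 9.95, 0.727 and 62.8 against 59.4 and 19.6, which overlap. In IPCs alone neither Myl6b nor Zrsr1 passed the main limma test (adjusted p = 0.747 and 0.743), with standard errors of 0.821 and 0.999. The fit of the difference shared 1 spread per gene over IPC and whole DG libraries, and its errors were below these. Both calls were lost with a pseudocount of 10 and when any 1 of the 6 whole DG libraries or sham IPC mouse 4 was left out, and DESeq2 called 47 genes here (0.543%). Whole DG libraries were made with another kit from purified RNA, so only the difference of the responses and not the levels was compared.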

How the data were processed

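Sorted cells of 6 IPC libraries were sequenced as polyA RNA on an Illumina platform, and 5 NSC and 6 whole DG libraries of the injury experiment served for comparison. The authors removed reads of ribosomal, mitochondrial and PhiX sequence, aligned the rest to the mouse genome GRCm38 with HISAT2, counted reads per GENCODE gene without regard to strand (featureCounts), filtered genes with CLEAR and normalized with DESeq2. The processing notes of the submitters name HISAT2 2.0.6, CASAVA 1.8.2 and GRCh38, a human build, for these mouse samples, and the gene names are those of mouse. The deposited values are a signal, normalized counts that are read counts divided by a size factor of each library, with and without the CLEAR filter. The filtered table leaves out values and does not change the others (441707 values shared). All nonzero values came out as whole reads once divided by the value of 1 read (100% within 0.05), and these reads were used for edgeR 4.0.16 and DESeq2 1.42.0. Rows whose symbol was repeated (678 of 50600, among them that of Itgam) and 1 column that matched no sample were not used. The 9 untreated IPC libraries are repeat libraries of 3 mice.

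The main test was limma 3.58.1 with a variance trend on log2(normalized count + 1), with Benjamini-Hochberg adjustment over all genes tested. Fold changes on this scale understate the change of scarce genes. Each library is 1 mouse, and p-values measure the spread between mice together with that of making a library from few cells. These cannot be told apart with 1 library per mouse. Exact permutation tests were two-sided. LFPI and sham mice are different animals, so the main comparison is unpaired. For the comparison with NSCs the mouse pairs the libraries by label. Over 7465 genes, the deviations of NSC and IPC libraries of an LFPI mouse from their group means correlated at 0.066 to 0.14. Sham deviations were taken from the mean of mice 4 and 6 alone, so these 2 mice share 1 correlation, 0.19. Named genes were those of the list the study chose on these libraries, those of smallest p without overlap and with a mean of at least 100, the 2 most abundant of each of 27 lists, the sort genes and the 5 of smallest p in each interaction. Sums and medians of the microglia and macrophage list are not reported here. The libraries, lists and tests were chosen with earlier results of these data known. Gene positions are from GENCODE on GRCm38 and sequences from RefSeq on GRCm38.p6, which held an upstream stretch for 19 of 24 genes searched. Total reads of 9604877 to 21598519 per IPC library bound the precision, and the floor of 3 counts covers counting error only. Alternatives were the pseudocount, filters, threshold, variance trend, rescaled libraries, other tools, thinned reads and leaving out each mouse. The values of single genes and of the Zrsr1 limit without 1 mouse, and of the reactive glia sum without Gfap, were added after seeing the data.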

Additional observations from a re-analysis of the deposited data

Results flagged for a closer look

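For Myl6b, a myosin light chain gene, the response to LFPI in IPCs differed from that in whole DG by -4.32 on the log2 scale (limma interaction, adjusted p = 0.0464), with -4.74 in IPCs and -0.43 in whole DG. All 3 sham IPC libraries were above all 3 LFPI libraries, which were at the floor (0.563, 0.775 and 1.36 normalized counts, the first 2 being 1 read). Untreated IPC libraries, which are no baseline, held Myl6b at 0 to 103, with a median of 0. For Zrsr1, the relative of U2AF, the difference was -6.28 (adjusted p = 0.0464 from limma). It was -6.30 in IPCs, where all 3 LFPI libraries were at 0, and -0.01 in whole DG. Both differences rest on a spread shared with the whole DG libraries, and in IPCs alone neither gene passed the main test.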

How the results depend on the processing

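Depth and lane part the groups of 3 mice, and the smallest exact p for a single value is 0.1. The limma comparison of LFPI and sham IPCs called 0 genes with pseudocounts of 0.5 and 10, with unfiltered genes, with genes that CLEAR kept in all 17 libraries, by adjusted p alone, with rescaled libraries, with IPCs and NSCs sharing the spread, with edgeR, with reads thinned to one depth and without any 1 of the 6 mice. It called 2 with CLEAR genes at 0 in all libraries kept (Myl6b and Gm6981, chosen by this result), 1 without the variance trend (Myl6b, adjusted p = 0.0220 from limma) and 18 with DESeq2. Among the 16970 unfiltered genes with a mean of at least 10, limma called 0, also without any 1 mouse, and DESeq2 called 125. The 18 calls of DESeq2 became 9 to 54 without 1 mouse, and 11 of the 18 remained without LFPI mouse 1 and 3 without sham mouse 6. They became 16 with thinned reads and 13 with the size factors of the authors. None of the 18 changed sign in any alternative. They were chosen on these same libraries and none overlapped between the groups, so a change of sign was hardly possible. Their steady sign is therefore no support for the directions.

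The difference between the responses of IPCs and NSCs passed for 0 genes, for 1 (Gm11716) with DESeq2 and for 0 to 1 without 1 mouse, the 1 being Kdm1b without sham mouse 5. With the mouse as a replicate block, which pairs the NSC and IPC libraries, it passed for 0 of 8080 genes (smallest adjusted p 0.314 from limma), so the block changed no call. The difference between the responses of IPCs and whole DG passed for 2 genes, 0 with a pseudocount of 10, 60 with unfiltered genes, 47 with DESeq2 and 0 to 8 without 1 mouse, with 8 without LFPI IPC mouse 1, 5 without sham IPC mouse 6, 1 without LFPI IPC mouse 2 or sham IPC mouse 5, and 0 without sham IPC mouse 4 or any whole DG mouse. The 878 genes without overlap became 817 with rescaled libraries (403 higher, 414 lower), 475 higher and 386 lower with thinned reads and 1666 of 16970 (9.82%) with unfiltered genes, and rescaling moved the median log2 fold change from 0.03 to -0.01. The ratio of reads in LFPI to sham libraries was 1.56 to 1.82 without 1 mouse. The cause of these changes was not tested. Thinned reads, the DESeq2 and unfiltered alternatives without 1 mouse, and those of the genes without overlap were added after seeing the data. Of 1401 alternative values of 78 named genes, 60 had another sign than the main value.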
